A study of Mus musculus with 32 samples.

Results

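Gingiva of mice with a ligature round an upper molar was compared with gingiva of untreated mice, across all genes. The members are 4 libraries labelled gingiva Li and 4 labelled gingiva Co, chosen by their labels alone, out of 32 libraries in the series. All mice were 9-week-old wild type C57BL/6J males, an inbred laboratory strain. In Li mice a silk thread had been tied round the maxillary left second molar, and Co mice were untreated. The other gingiva groups, which entered the fit, were Tra, with composite resin built up on that tooth so that it is overloaded in biting, and LiTra, with both treatments. Bone libraries of the same 4 groups served for 1 comparison between tissues. Per the series title, the study asked how overload adds to bone loss in ligature periodontitis, and the ligature alone is its inflamed reference state. The labels give neither the time between ligation and sampling nor whether each library is 1 mouse, so p-values measure the spread between libraries.

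Gingiva is the soft tissue round the neck of the tooth, a stratified keratinised epithelium over collagen-rich connective tissue, with a thin junctional epithelium against the enamel. A thread left round the tooth collects bacterial plaque, and the gingiva answers with cytokines and chemokines, which call in neutrophils and monocytes through activated vessels. In periodontitis, resident cells also release proteases that break down collagen and RANKL, the ligand that turns monocyte-lineage cells into bone-resorbing osteoclasts.

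Library totals were 36913075 to 46959361 counts in Li and 39416738 to 42787336 in Co, with 23305 to 24108 genes above 0. The tissue label was checked against 11 defining markers of oral epithelium, among them Krt5, Krt14, Krt13, Krt76 and Trp63, and all 11 were present, with a summed level of 76893 to 95935 CPM (counts scaled to library size) in Co and 42528 to 90195 in Li. Neighbouring tissues were present in uneven amounts. Skeletal muscle markers summed to 211 to 4604 CPM in Co and 654 to 4160.2 in Li, salivary gland markers to 7.22 to 5958 and 173 to 8435, and bone, dentin and enamel genes to 971 to 1295 and 385 to 661. The last of these sums includes Odam, a gene of the junctional epithelium. Erythroid markers were highest in Li 1, at 2348 CPM against at most 851 in the other 7 libraries.

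Fold changes are log2 ± SE from edgeR's quasi-likelihood test with 4 libraries a group, levels are CPM after TMM scaling, means are ± SD (n = 4), and a gene is said to have risen or fallen where its Benjamini-Hochberg adjusted p was under 0.05. Of 20143 genes tested, 1508 passed (7.49%). Of these 1043 rose (5.18% of genes tested) and 465 fell (2.31%), and 4787 genes had an unadjusted p under 0.05. The changes were lopsided in size as well as number: 495 genes rose and 125 fell by at least 2-fold, 80 rose by a log2 of at least 3, and 17 fell by a log2 of at least 2. In 8.28% of the genes tested all 4 Li libraries lay above all 4 Co libraries, and in 6.28% all lay below. The median log2 fold change over all genes was 0.00453. A range beside a count below is over the 16 fits that each leave out 1 gingiva library, given where it moves the count by more than 1.5 times. The number of calls depended on single libraries: it was 526 without Co 1, 553 without Li 2, 695 without Co 3, 700 without Co 4 and 716 without Li 1. Li 3, the library nearest to Co, moved it the other way, to 2213 without it, of which 708 fell. With the Li and Co libraries fitted alone it was 396, with DESeq2 2736 and with limma-voom 1005. The fit of Li and Co alone changed the libraries that estimate the spread, the filter and the scaling together, and their parts were not tested.

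**Figure D1:**
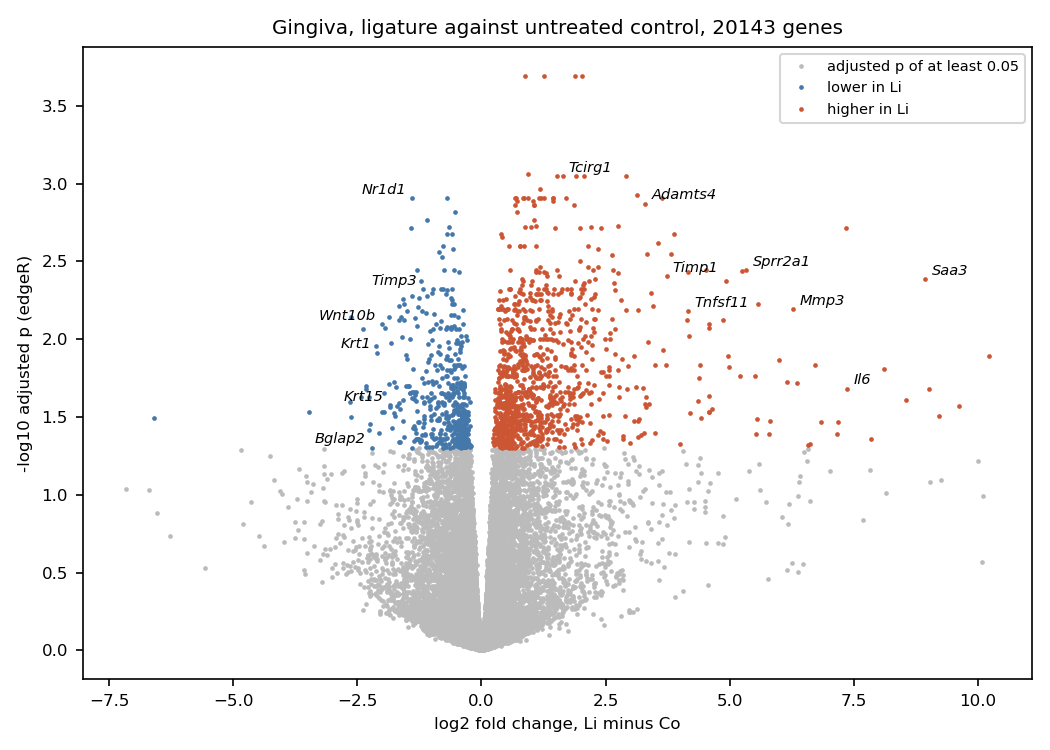
Each point is 1 of the 20143 genes tested, with the log2 fold change of Li over Co on the horizontal axis and the negative log10 of the edgeR adjusted p on the vertical axis. The 1043 genes that rose reach further from 0 than the 465 that fell, Saa3 lying at 8.94 and Krt1 at -2.10. Fitted values of genes without a count in 1 of the groups depend on the prior count.

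The Li libraries were not alike. Over the 1043 genes that rose, the median log2 difference from the Co mean was 0.98 in Li 1 and 1.23 in Li 2, against 0.523 in Li 3 and 0.627 in Li 4. Over the 465 genes that fell it was -0.701, -0.793, -0.432 and -0.481 in the same order. Li 2 was the highest Li library for 710 of the genes that rose and Li 1 for 222. Oral epithelium markers summed to 47186 and 42528 CPM in Li 1 and Li 2 and to 88282 and 90195 in Li 3 and Li 4, and the part of tissue makeup in these differences was not tested.

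Acute-phase genes held some of the largest rises, 8 of 14 rising (range 2 to 10, fewest without Co 1) and 0 falling, with a median log2 change of 2.82. Limma-voom called 2 of the 14 and DESeq2 12. Saa3 (ENSMUSG00000040026.9), a serum amyloid A made locally by macrophages and epithelium, stood at 0.437, 2.16, 0.144 and 1.96 CPM in Co 1 to Co 4 and at 1048, 1068, 109 and 81.0 CPM in Li 1 to Li 4. No library of Co came near any of Li, and the fitted change was 8.94 ± 1.38 (edgeR adjusted p = 0.0041). Serpina3n (ENSMUSG00000021091.9), an inhibitor of serine proteases, was at 4.66, 8.86, 7.45 and 7.7 CPM in Co and 338, 397, 83.5 and 54.6 CPM in Li, again without overlap (4.93 ± 0.77, edgeR adjusted p = 0.0042). Haptoglobin (Hp), which binds free haemoglobin, moved from 8.07 ± 2.63 to 68.3 ± 68.8 CPM (3.08 ± 0.79), and Lbp, which hands bacterial lipopolysaccharide to Cd14, from 4.92 ± 1.07 to 19.8 ± 20.1 CPM (2.01 ± 0.48). Saa2 had no count in any Co library and 261 counts over the Li libraries, at least 84.2-fold higher against 3 counts over the group. Lcn2, which binds bacterial siderophores, did not pass at 2.42 ± 0.94 (edgeR adjusted p = 0.14), and Li 3 and Li 4 lay within the Co range. The test was no longer passed with 1 library left out by Hp (Co 1, Co 2, Co 3, Co 4, Li 1 or Li 2), Lbp (Co 1, Co 2, Co 3 or Co 4) and Saa2 (Co 1, Co 3, Co 4 or Li 2).

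Of 23 cytokine ligands 5 rose (range 2 to 8, fewest without Co 1, Co 3 or Li 2, most without Li 3) and 0 fell (median 1.57). By limma-voom 1 of the 23 was called and by DESeq2 8. Il6, the main inducer of acute-phase genes, had 0.0971, 0.0958, 0 and 0.0794 CPM in the Co libraries and 20.6, 25.2, 0.244 and 0.533 CPM in Li, and rose by 7.37 ± 1.68 (edgeR adjusted p = 0.021). Il6 was nearly silent in Co, and Li 3 and Li 4 were far closer to Co than to Li 1 and Li 2. Il24, of the interleukin 20 subfamily that signals to epithelium, was at 0.0971, 0.192, 0 and 1.27 CPM in Co and 16.7, 59.6, 1.46 and 8.58 in Li (5.81 ± 1.498). Il19 of the same subfamily had no count in Co and 624 counts over Li, at least 201-fold higher against 3 counts over the group. Il33, an epithelial and stromal alarmin, had a modest and even rise, from 68.3, 42.7, 65.1 and 66.5 to 114, 152, 93.2 and 160.3 CPM (1.10 ± 0.18, edgeR adjusted p = 0.0036). Il11 rose by 2.56 ± 0.66, with Li 3 inside the Co range. Il1b and Tnf, the classical early cytokines of macrophages, did not pass. Il1b was at 18.2, 94.7, 33.9 and 32.5 CPM in Co and 327, 415, 53.9 and 58.5 CPM in Li (2.25 ± 0.90, edgeR adjusted p = 0.14), with Co 2 above Li 3 and Li 4. Tnf was at 2.7, 4.31, 8.77 and 6.35 and 9.84, 12.4, 3.98 and 6.53 CPM (0.56 ± 0.43, edgeR adjusted p = 0.47), with the groups mixed. Il17a, made by T helper and innate-like lymphocytes, was at 2.98 ± 1.27 (edgeR adjusted p = 0.17). The most abundant ligands, the interleukin 1 receptor antagonist Il1rn and Il1f9, an epithelial interleukin 36, were at 0.16 ± 0.27 and -0.41 ± 0.16. Leaving out 1 library ended the call of Il6 (Co 1, Co 3, Co 4 or Li 2), Il24 (Co 1, Co 2, Co 3, Li 1 or Li 2) and Il11 (Co 1, Co 2, Co 3, Co 4, Li 1 or Li 2).

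More of the receptors passed, 9 of 23, with none lower. Il1rl1, the receptor of interleukin 33, was at 4.27, 6.78, 5.82 and 5.08 CPM in Co and 109, 100.03, 15.01 and 33.5 CPM in Li, a rise of 3.55 ± 0.51 (edgeR adjusted p = 0.0024). Il4ra, shared by the receptors of interleukins 4 and 13, rose by 2.15 ± 0.33, Csf1r, the receptor of the macrophage growth factor, by 1.86 ± 0.25, and Osmr, the receptor subunit for oncostatin M, by 1.33 ± 0.22. The broadly expressed Il6st, the signalling chain shared by the interleukin 6 family, rose by 0.49 ± 0.12 and Il13ra1 by 0.89 ± 0.16. Among genes that NF-kB and STAT3 signalling induce as their own brakes or partners, 6 of 15 rose (range 1 to 11, fewest without Co 1, Co 4, Li 1 or Li 2, most without Li 3) and 0 fell. Limma-voom called 2 of these 15 and DESeq2 9. Socs3, the feedback inhibitor of the interleukin 6 receptor, went from 15.9, 33.9, 21.9 and 23.6 CPM in Co to 158, 184, 49.5 and 72.4 CPM in Li (2.29 ± 0.42, edgeR adjusted p = 0.0074), and Nfkbia, the inhibitor that holds NF-kB in the cytoplasm, from 75.1 ± 7.27 to 142 ± 42.9 CPM (0.92 ± 0.26). Stat3 itself rose by 0.80 ± 0.19, and the NF-kB partners Bcl3 and Nfkbie by 1.37 ± 0.33 and 1.36 ± 0.34. Interferon response genes moved little: 1 of 20 rose (Rsad2, 1.56 ± 0.43) at a list median of 0.20, and Isg15 was at -0.01 ± 0.88. Immediate early genes, markers of recent stimulation or handling, had 0 of 15 pass edgeR (4 at an unadjusted p under 0.05, 1 by DESeq2 and 0 by limma-voom, and up to 1 with 1 library left out), with Fos at 1.27 ± 0.58 and Dusp1 at 0.91 ± 0.34. Calls lost with 1 library left out were those of Il6st (Co 1, Co 3, Co 4 or Li 2), Nfkbia (any of 10 of the 16 libraries), Stat3 (Co 1, Co 3, Co 4, Li 1 or Li 2), Bcl3 (Co 1, Co 3, Co 4, Li 1 or Li 2), Nfkbie (Co 1, Co 4, Li 1 or Li 2) and Rsad2 (any of 7 of the 16 libraries).

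The stretches of 250 bases upstream of the RefSeq start (GRCm38.p6, the build of the promoter table and not that of the counts) are shown for 6 genes that rose, because each holds a known motif of an inflammatory transcription factor, printed in capitals. For Saa3 (chr7:46715677-46715926, minus strand) the capitals mark TTNCNNAA, a C/EBP-type motif, and for Mmp3 (chr9:7445572-7445821, plus strand) and Mmp13 (chr9:7272264-7272513, plus strand), both on chromosome 9, they mark TGANTCA, an AP-1 motif. For Il6 (chr5:30012864-30013113, plus strand), Cxcl3 (chr5:90785851-90786100, plus strand) and Nfkbia (chr12:55492648-55492897, minus strand) they mark an NF-kB motif (GGGA, any base and TTTCC), on either strand. Only the motif named for each gene is in capitals. Matches to the other motifs were left in lower case, such as the AP-1 match tgagtca near the left end of Il6.
Saa3: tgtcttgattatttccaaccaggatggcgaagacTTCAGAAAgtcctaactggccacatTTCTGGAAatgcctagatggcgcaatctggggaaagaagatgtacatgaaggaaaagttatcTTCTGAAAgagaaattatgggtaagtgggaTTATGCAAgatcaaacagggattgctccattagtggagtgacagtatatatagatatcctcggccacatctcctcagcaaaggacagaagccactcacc
Mmp3: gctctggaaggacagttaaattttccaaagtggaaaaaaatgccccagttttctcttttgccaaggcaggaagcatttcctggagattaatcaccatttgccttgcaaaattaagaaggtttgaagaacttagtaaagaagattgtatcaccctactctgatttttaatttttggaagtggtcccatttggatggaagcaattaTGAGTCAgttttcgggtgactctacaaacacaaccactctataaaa
Mmp13: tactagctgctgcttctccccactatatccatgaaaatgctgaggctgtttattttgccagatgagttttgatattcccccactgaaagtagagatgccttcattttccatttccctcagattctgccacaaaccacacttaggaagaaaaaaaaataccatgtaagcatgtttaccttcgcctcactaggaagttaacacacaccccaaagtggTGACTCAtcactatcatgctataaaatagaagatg
Il6: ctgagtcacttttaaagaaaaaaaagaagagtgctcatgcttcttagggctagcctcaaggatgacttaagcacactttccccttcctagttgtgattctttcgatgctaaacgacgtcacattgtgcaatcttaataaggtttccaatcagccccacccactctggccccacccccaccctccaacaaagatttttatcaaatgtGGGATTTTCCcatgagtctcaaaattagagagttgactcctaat
Cxcl3: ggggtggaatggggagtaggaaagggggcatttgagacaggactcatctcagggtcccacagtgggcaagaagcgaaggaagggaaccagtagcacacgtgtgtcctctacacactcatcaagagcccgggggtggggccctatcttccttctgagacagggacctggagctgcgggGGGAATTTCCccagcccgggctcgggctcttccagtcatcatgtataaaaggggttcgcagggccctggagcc
Nfkbia: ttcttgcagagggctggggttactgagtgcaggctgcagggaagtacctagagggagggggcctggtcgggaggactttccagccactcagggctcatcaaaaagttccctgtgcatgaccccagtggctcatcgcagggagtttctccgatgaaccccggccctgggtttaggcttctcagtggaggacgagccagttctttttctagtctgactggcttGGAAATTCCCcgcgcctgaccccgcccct
The AP-1 motif begins 46 bases before the start in Mmp3 and 35 in Mmp13, and the NF-kB motif 44 bases before it in Il6, 73 in Cxcl3 and 29 in Nfkbia. Saa3 holds 4 C/EBP-type matches. The motifs were searched on both strands of the 300 bases from 250 before to 50 after each start. A gene with several promoters counted once for each. The NF-kB motif was in 15 of 988 promoters of genes that rose (1.52%) and 0 of 450 of those that fell (0.00%). Among promoters of all tested genes it was in 82 of 16790 (0.488%). The genes that rose with this motif include Il6, Cxcl3 and Nfkbia, shown above. AP-1 was in 8.60%, 7.56% and 6.17%, the C/EBP-type motif in 37.7%, 33.1% and 33.4%, the interferon response motif (TTTC, any 2 bases and TTTC) in 3.54%, 1.33% and 3.16%, and the E-box CACGTG in 7.49%, 8.0% and 9.09%. Over all 32851 promoters of the table the shares were 0.411% for NF-kB, 7.81% for AP-1, 40.7% for the C/EBP-type motif, 3.44% for the interferon motif and 7.15% for the E-box. Of the genes that rose, 770 had a RefSeq promoter, and of those that fell 343. These shares describe letters in a window, and no test was made of them.

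Chemokine genes rose in both classes, 5 of 17 CXC genes (range 1 to 9, fewest without Li 2, most without Li 3) and 8 of 24 CC genes (range 4 to 9, fewest without Co 1, Co 3, Co 4, Li 1 or Li 2), and none fell. Limma-voom called 3 of the CXC and 2 of the CC genes, and DESeq2 10 of each. Cxcl5, a neutrophil attractant of epithelium, stood at 47.6, 212, 138 and 160.4 CPM in Co and 639, 617, 331 and 571 CPM in Li (1.95 ± 0.45, edgeR adjusted p = 0.020). Its neighbour Ppbp, also a neutrophil attractant, was at 110.2, 409, 254 and 302 and 876, 927, 468 and 1154 CPM (1.67 ± 0.41). In both genes Co 1 was the lowest library and every Li library lay above every Co library. Ccl2, which recruits monocytes through Ccr2, was at 0.437, 0.982, 0.911 and 3.73 CPM in Co and 30.7, 28.2, 4.86 and 12.3 CPM in Li, a rise of 3.66 ± 0.74 (edgeR adjusted p = 0.012), and Ccr2 itself rose by 1.73 ± 0.35. Ccl9, a myeloid chemokine that osteoclast precursors also make and answer to, rose by 3.46 ± 0.60, Ccl7 by 3.35 ± 0.68 and Ccl6 by 2.03 ± 0.57. Cxcl3, a neutrophil attractant whose promoter is shown above, rose by 2.04 ± 0.48 with overlapping groups, Pf4, a platelet and macrophage chemokine, by 1.82 ± 0.34, and Cxcl12, a stromal chemokine, by 1.38 ± 0.36, also with overlap. Cxcl1 and Cxcl2, the main ligands of the neutrophil receptor Cxcr2, were at 1.36 ± 0.51 (edgeR adjusted p = 0.12) and 2.87 ± 0.84 (edgeR adjusted p = 0.054). The interferon-induced Cxcl9 was at 1.6, 1.41, 1.51 and 59.5 CPM in Co and 0.699, 3.01, 0.244 and 1.36 CPM in Li, and only Co 4 was high (edgeR adjusted p = 0.31). Without 1 library the call did not hold for Cxcl5 (Co 3, Co 4, Li 1 or Li 2), Ppbp (Co 1, Co 3, Co 4, Li 1 or Li 2), Ccl6 (any of 12 of the 16 libraries), Cxcl3 (Co 1, Co 2 or Li 2) and Cxcl12 (Co 1, Co 2, Co 3, Co 4, Li 1 or Li 2).

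Of 22 monocyte and macrophage markers 13 rose (range 5 to 17, fewest without Co 1, Co 4 or Li 2) and none fell, with a median log2 change of 1.80. By limma-voom 11 of the 22 were called and by DESeq2 18. From bulk tissue, more cells of a type and more RNA per cell cannot be told apart. Cd14, the lipopolysaccharide co-receptor, was at 10.8, 11.6, 8.48 and 9.92 CPM in Co and 84.9, 143, 21.4 and 27.3 CPM in Li (2.76 ± 0.59, edgeR adjusted p = 0.016). Lyz2, the lysozyme of myeloid cells, was at 94.8, 123, 122 and 94.1 and 454, 619, 278 and 295 CPM (1.92 ± 0.42), and Cd68, a lysosomal macrophage protein, rose by 1.98 ± 0.34, as did the scavenger receptor Msr1 by 2.51 ± 0.52. Spp1, or osteopontin, made by macrophages, osteoclasts and osteoblasts, was at 43.1, 14.6, 47.2 and 38.2 CPM in Co and 562, 480.3, 152 and 238 CPM in Li (3.32 ± 0.81, edgeR adjusted p = 0.027). These genes were highest in Li 1 and Li 2, and Li 3 and Li 4 lay between those and Co. Arg1 and Gpnmb did not pass, at 0.26 ± 0.20 and 0.34 ± 0.27. The summed level of the list was 848 to 1287 CPM in Co and 1621 to 3067 CPM in Li, without overlap. With 1 library left out, the call was lost for Cd14 (Co 1, Co 3, Co 4 or Li 2), Lyz2 (Co 1, Co 4 or Li 2) and Spp1 (Co 1, Co 2, Co 3, Co 4, Li 1 or Li 2).

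Neutrophil markers had a higher median, 2.53, but 4 of 23 passed (range 1 to 8, fewest without Co 1, Co 3, Co 4, Li 1 or Li 2, most without Li 3). With limma-voom 1 of the 23 passed and with DESeq2 11. S100a8 (ENSMUSG00000056054.10), a calcium-binding protein of neutrophils that inflamed epithelium also makes, was at 46.5, 314, 146 and 146 CPM in Co and 2861, 2268, 424 and 357 CPM in Li (3.18 ± 0.81, edgeR adjusted p = 0.032). Li 3 and Li 4 lay just above the highest Co library, and Li 1 and Li 2 several times higher. S100a9 followed it, with 3.0005 ± 0.84, and Mmp9, the gelatinase of neutrophils and osteoclasts, rose by 2.22 ± 0.44. Clec4d, a fungal pattern receptor of myeloid cells, rose by 2.85 ± 0.78. Genes of neutrophil granules and surface were highest in 1 library. Mpo, the myeloperoxidase of primary granules, was at 0, 0.192, 1.39 and 0.185 CPM in Co and 47.7, 4.39, 0.195 and 0 CPM in Li, and Ly6g, a surface marker, at 0, 0.311, 0.767 and 0 and 6.47, 0.87, 0.0976 and 0 CPM. Neither passed (edgeR adjusted p = 0.14 and 0.35). Li 1, which carried them, also held the most erythroid RNA, and the part of blood or marrow RNA in the neutrophil genes of that library was not tested. The list score, the mean log2 difference from the Co mean over members with 0.5 CPM added, was 3.49 in Li 1, 2.51 in Li 2, 0.17 in Li 3 and 0.12 in Li 4, while Co libraries ranged from -0.84 to 0.59, so that Li 3 and Li 4 lay within the Co range. The test was no longer passed with 1 library left out by S100a8 (Co 1, Co 3, Co 4, Li 1 or Li 2), S100a9 (any of 12 of the 16 libraries) and Clec4d (any of 11 of the 16 libraries).

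Lymphoid and antigen-presenting lists gave no such pattern. Of 21 T and NK cell markers, 10 B cell markers, 15 dendritic and Langerhans cell markers, 11 MHC class II genes and 15 mast cell and eosinophil markers, 0 passed the edgeR test at an adjusted p under 0.05. Their medians were 0.30, 1.07, 0.44, 0.42 and 0.77. In the same order 2, 0, 4, 3 and 5 had an unadjusted p under 0.05, 1, 0, 1, 1 and 3 passed DESeq2 and 0, 0, 1, 0 and 0 limma-voom. At most 2 genes of any of these lists passed edgeR in 1 direction when 1 library was left out. Cd3e, part of the T cell receptor complex, was at 0.0971, 1.22, 0.671 and 0.899 CPM in Co and 0.599, 2.19, 0.757 and 0 CPM in Li, with the groups overlapping. Cd74, the chaperone of class II molecules, was at 175 ± 33.8 CPM in Co and 229 ± 150.5 CPM in Li (0.39 ± 0.36, edgeR adjusted p = 0.58). B cell genes were higher in Li 1 alone, with a list score of 1.56 there, -0.52 to 0.24 in the other Li libraries and -0.58 to 0.34 in Co. Fscn1, an actin bundler of migrating dendritic cells, had Li above Co in every library at 1.24 ± 0.42 (edgeR adjusted p = 0.089), and Cd207, the langerin of Langerhans cells, had Li below Co in every library at -0.93 ± 0.35 (edgeR adjusted p = 0.11). The mast cell tryptase Tpsab1 was at 1.51 ± 0.52 and the histamine-forming Hdc at 2.82 ± 0.89, and neither passed. Other mast cell genes did not share these values. Mrgprb2, with the smallest p of that list, was at -1.84, and Kit and Mcpt4, abundant members, were at 0.38 and 0.14. In the mast cell and eosinophil list 14 members had a positive fold change and 1 a negative one. Of 9 plasma cell markers Sdc1 alone rose (0.33 ± 0.10), a syndecan that keratinocytes also carry. Leaving out 1 library ended the call of Sdc1 (any of 9 of the 16 libraries).

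Vessel genes rose too. Of 11 leukocyte adhesion molecules 7 rose and none fell (median 1.71). Selp, the P-selectin on which leukocytes roll, was at 11.6, 26.7, 22.2 and 19.4 CPM in Co and 167, 219, 72.5 and 81.5 CPM in Li (2.75 ± 0.43, edgeR adjusted p = 0.0038). Vcam1, which arrests them, was at 10.6, 8.24, 10.2 and 9.26 and 39.9, 35.1, 15.8 and 19.6 CPM (1.53 ± 0.25), and Ackr1, the chemokine-carrying receptor of venules, at 3.5, 4.91, 3.71 and 5.13 and 18.6, 15.4, 9.93 and 12.6 CPM (1.71 ± 0.23, edgeR adjusted p = 0.0012). Every Li library exceeded every Co library in these 3 genes. Sele, the E-selectin of inflamed vessels, rose by 2.35 ± 0.42 and Icam1, a ligand of leukocyte integrins, by 1.51 ± 0.30. Of 15 endothelial markers 8 rose, led by Mcam at 16.97, 15.2, 12.8 and 10.7 CPM in Co and 75.0, 80.5, 36.7 and 40.1 CPM in Li (2.06 ± 0.24, edgeR adjusted p = 8.9e-04) and Pecam1 at 1.25 ± 0.17. Among the 15 limma-voom called 8 and DESeq2 11. Kdr, the main receptor of vascular endothelial growth factor, rose by 0.996 ± 0.14 and Emcn, endomucin, by 0.83 ± 0.14. Vwf and Cldn5, a clotting glycoprotein and a tight junction protein of vessels, were at -0.02 ± 0.40 and -0.02 ± 0.27 and did not pass.

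Complement genes rose in 8 of 17 cases (range 4 to 10, fewest without Co 1 or Co 4) and fell in none. Cfb, factor B of the alternative pathway, was at 8.57, 8.72, 8.58 and 12.1 CPM in Co and 73.8, 207, 33.8 and 23.2 CPM in Li (3.16 ± 0.56, edgeR adjusted p = 0.0065). C3, on which all complement pathways converge, was at 42.2, 41.8, 47.1 and 40.1 and 139, 682, 116 and 80.3 CPM (2.57 ± 0.56), with Li 2 far above the rest. Properdin (Cfp), which stabilises the alternative convertase, rose by 2.25 ± 0.35, the receptor C3ar1 by 2.23 ± 0.41 and the inhibitor Serping1 by 1.16 ± 0.24. In the coagulation and plasminogen list 7 of 14 rose (range 3 to 10, fewest without Co 4 or Li 2). Plau, the urokinase activator, rose by 1.11 ± 0.18 (edgeR adjusted p = 0.0037), its receptor Plaur by 2.40 ± 0.52 and protease nexin 1 (Serpine2) by 1.56 ± 0.25, while tissue factor (F3) was at -0.42 ± 0.24 and did not pass. Calls lost with 1 library left out were those of C3 (Co 1 or Co 4) and Plaur (Co 1, Co 4 or Li 2).

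Ptgs2, the inducible cyclooxygenase of prostaglandin synthesis, was at 3.25, 10.3, 5.3 and 6.88 CPM in Co and 62.5, 155, 11.4 and 25.6 CPM in Li (3.30 ± 0.80, edgeR adjusted p = 0.026). Ptges, the prostaglandin E synthase that works with it, rose by 0.90 ± 0.21, and Alox5ap, needed for leukotriene synthesis, by 1.69 ± 0.37. Ptgfr, the receptor of prostaglandin F, went the other way, from 46.0, 67.9, 61.3 and 41.0 CPM in Co to 28.7, 25.5, 28.5 and 25.4 CPM in Li (-0.998 ± 0.17, edgeR adjusted p = 0.0050), with tight groups and no overlap. Of 19 genes in this list 3 rose (range 0 to 4, fewest without Co 1, Co 4 or Li 2) and 1 fell. Bdkrb1, the bradykinin receptor that is induced by injury, rose by 2.15 ± 0.33 (edgeR adjusted p = 0.0025), whereas the constitutive Bdkrb2 was at -0.13 ± 0.15. The lubricin gene Prg4 was at 0.316, 1.53, 1.34 and 0.397 CPM in Co and 16.1, 89.4, 5.49 and 2.0 CPM in Li (4.97 ± 1.02), with most of the rise in Li 2. The hyaluronan synthases Has2 and Has3 rose by 1.321 ± 0.34 and 0.99 ± 0.26, and Vcan, the large proteoglycan that binds hyaluronan, by 1.30 ± 0.22, and the hyaluronan receptor Cd44 rose by 0.55 ± 0.09. Of 12 bradykinin and hyaluronan genes 7 rose (range 3 to 8, fewest without Co 1). Without 1 library the call did not hold for Ptgs2 (Co 1, Co 3, Co 4, Li 1 or Li 2), Ptges (Co 1, Co 4, Li 1 or Li 2), Alox5ap (Co 1, Co 4 or Li 2), Prg4 (Co 1), Has2 (Co 1, Co 2, Co 4, Li 1, Li 2 or Li 4) and Has3 (Co 1, Co 2, Co 3, Co 4, Li 1 or Li 2).

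Matrix proteases showed large rises. Mmp3 (ENSMUSG00000043613.9), stromelysin 1, which cleaves matrix proteins and activates other proteases, was at 3.28, 3.35, 3.55 and 3.47 CPM in Co and 613, 364, 33.8 and 45.1 CPM in Li (6.27 ± 1.08, edgeR adjusted p = 0.0064). The Co libraries were tightly grouped and the lowest Li library was well above them. Mmp13 (ENSMUSG00000050578.11), the main collagenase of rodents, was at 50.2, 50.4, 34.2 and 40.5 CPM in Co and 937, 1012, 260.5 and 368 CPM in Li (3.88 ± 0.54, edgeR adjusted p = 0.0021). Adamts4, an aggrecanase, rose by 3.30 ± 0.44 and Mmp19 by 2.36 ± 0.35. The inhibitors parted: Timp1 was at 8.52, 6.97, 12.6 and 4.58 CPM in Co and 154, 189, 40.5 and 50.7 CPM in Li, a rise of 3.73 ± 0.58 (edgeR adjusted p = 0.0039), whereas Timp3, the inhibitor held in the matrix, was at 305, 378, 487 and 258 and 151, 159, 165 and 155 CPM and fell by 1.18 ± 0.20 on the log2 scale (edgeR adjusted p = 0.0048). Timp2 was at 0.03 ± 0.23. In the list of metalloproteinases and inhibitors 10 rose (range 6 to 13, fewest without Co 1 or Li 2), 1 fell and 10 did not pass, the abundant gelatinase Mmp2 at 0.32 ± 0.18.

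Collagen genes rose in 12 of 24 cases (range 7 to 13, fewest without Co 1 or Li 2), with no call for the main fibre-forming chains. Col4a1, of the basement membrane under epithelium and round vessels, was at 39.0, 58.5, 62.9 and 41.9 CPM in Co and 215, 485, 185 and 192 CPM in Li (2.41 ± 0.34, edgeR adjusted p = 0.0019), and Col4a2 rose by 2.07 ± 0.34. Col1a1, the bulk collagen of gingival connective tissue, was at 979, 1249.6, 1815 and 760.3 and 699.6, 2066, 1207 and 1504 CPM (0.19 ± 0.45, edgeR adjusted p = 0.85), with the groups intermixed, and Col1a2 was at 0.22 ± 0.34. Col3a1, which forms thin fibres in young or healing tissue, was at 0.91 ± 0.30 (edgeR adjusted p = 0.076). Enzymes that crosslink or hydroxylate collagen rose, Lox by 1.79 ± 0.34, Plod2 by 1.204 ± 0.21 and the chaperone Serpinh1 by 0.88 ± 0.16. Fbn1, the main fibrillin of microfibrils, was at 24.6, 41.5, 29.9 and 29.3 CPM in Co and 115, 258, 97.1 and 88.3 CPM in Li (2.16 ± 0.35, edgeR adjusted p = 0.0042), and Tnc, a matrix protein of wounds, rose by 1.09 ± 0.19. Of 19 other matrix genes 3 rose (range 2 to 5, most without LiTra 3 or Li 3) and none fell, the proteoglycan Bgn rising by 1.02 ± 0.25. Fibronectin (Fn1) had every Li library above Co but did not pass, at 1.41 ± 0.42 (edgeR adjusted p = 0.053), and decorin (Dcn) was at 0.21 ± 0.16. Postn, or periostin, of periodontal ligament and periosteum, was at 887, 1351, 1289 and 714 and 622, 663, 879.8 and 1063 CPM (-0.39 ± 0.24, edgeR adjusted p = 0.35), and of 10 ligament and tendon genes 0 passed the edgeR test (4 at an unadjusted p under 0.05, 4 by DESeq2 and 0 by limma-voom). When 1 library was left out, 0 to 2 of them fell. Of these, Aspn, Thbs4 and Tnmd had every Li library below every Co library, at -1.36 ± 0.41, -1.22 ± 0.40 and -1.48 ± 0.44 (edgeR adjusted p = 0.061, 0.077 and 0.058). Of 10 fibroblast markers 2 rose, Thy1 by 1.34 ± 0.23 and Pdgfra by 1.05 ± 0.21. With 1 library left out, the call was lost for Bgn (Co 1, Co 4 or Li 2).

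**Figure D2:**
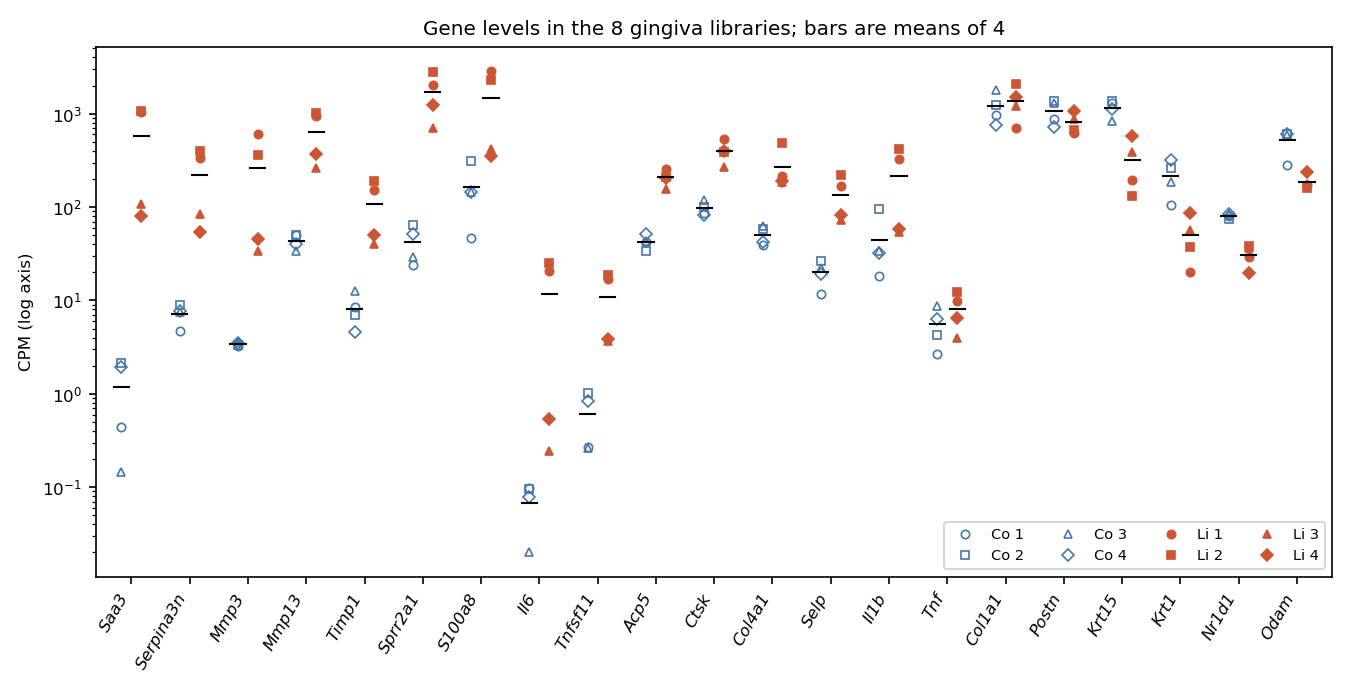
Levels of 21 genes in the 8 libraries, in CPM on a log axis, with open symbols for Co, filled symbols for Li, 1 symbol shape for each replicate number and a bar for the mean of 4. Saa3, Mmp3 and Timp1 show Li 1 and Li 2 above Li 3 and Li 4 and all of these above Co, Il1b, Tnf, Col1a1 and Postn show overlapping groups, and Krt15, Krt1, Nr1d1 and Odam are lower in Li. A value of 0 is drawn at 0.02 CPM.

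Osteoclast markers were the list with the highest share of members that rose, 11 of 12 (range 7 to 12, fewest without Co 1 or Co 3), with a median log2 change of 3.03. Limma-voom called 11 of the 12 and DESeq2 12. Acp5 (ENSMUSG00000001348.16), the tartrate-resistant acid phosphatase used to stain osteoclasts, was at 42.4, 33.5, 43.7 and 51.4 CPM in Co and 256, 212, 156 and 207 CPM in Li (2.28 ± 0.39, edgeR adjusted p = 0.0051). Ctsk (ENSMUSG00000028111.5), cathepsin K, the collagen-degrading protease of osteoclasts, was at 85.7, 101, 118 and 82.4 and 532, 386, 271 and 402 CPM (2.04 ± 0.40, edgeR adjusted p = 0.010). Tcirg1, a subunit of their proton pump, was at 29.6, 34.5, 33.5 and 33.1 and 126, 121, 74.8 and 85.2 CPM (1.63 ± 0.19, edgeR adjusted p = 8.9e-04), and Atp6v0d2, another subunit of it needed for cell fusion, at 3.69, 0.767, 1.82 and 2.8 and 40.7, 29.9, 21.2 and 28.0 CPM (3.72 ± 0.79). In these 4 genes all Li libraries exceeded all Co libraries, and Li 3 was the lowest Li library in each. Ocstamp and Dcstamp, membrane proteins of osteoclast fusion, rose by 3.82 ± 0.59 and 3.32 ± 0.80, Slc9b2, a sodium-proton exchanger, by 2.75 ± 0.39, Itgb3, the integrin by which they attach, by 1.98 ± 0.28, and Nfatc1, their master transcription factor, by 1.17 ± 0.31. Siglec15 was at 4.18 ± 1.45 (edgeR adjusted p = 0.092) and did not pass. The list scores were 2.47, 2.33, 1.60 and 2.06 in Li 1 to Li 4, a narrower spread than for neutrophil markers, and the summed level was 186 to 232 CPM in Co and 602 to 1109 CPM in Li. Several of these genes, Acp5 and Ctsk among them, are also expressed by macrophages. The test was no longer passed with 1 library left out by Atp6v0d2 (Co 3), Dcstamp (Co 1, Co 2, Co 3, Li 1 or Li 2) and Nfatc1 (Co 1, Co 2, Co 3, Co 4, Li 1 or Li 2).

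Tnfsf11 (ENSMUSG00000022015.9), which encodes RANKL, was at 0.267, 1.03, 0.264 and 0.847 CPM in Co and 17.2, 18.6, 3.71 and 3.89 CPM in Li (4.17 ± 0.75, edgeR adjusted p = 0.0066). Its receptor Tnfrsf11a (RANK) rose by 1.39 ± 0.26 (edgeR adjusted p = 0.0070). The decoy receptor osteoprotegerin, Tnfrsf11b, was at 11.3, 21.5, 15.9 and 20.8 and 26.01, 29.4, 10.3 and 29.7 CPM (0.46 ± 0.33, edgeR adjusted p = 0.44) and did not pass, with Li 3 the lowest of all 8 libraries. Csf1 and Il34, the growth factors of the osteoclast lineage, were at 0.57 ± 0.30 and 0.13 ± 0.19 and did not pass either. Genes of hard tissue did not rise with the osteoclast genes. Bglap2, an osteocalcin gene of mature osteoblasts, was at 215, 66.0, 139 and 94.3 CPM in Co and 24.3, 6.52, 44.2 and 36.2 CPM in Li and fell by 2.21 ± 0.63 on the log2 scale (edgeR adjusted p = 0.0497). The near-identical Bglap was at -2.21 ± 0.65 (edgeR adjusted p = 0.054), and reads of these copies may have been split in counting. Ibsp, bone sialoprotein, was at 0.42 ± 0.31 and Sp7, the osteoblast transcription factor, at -1.30 ± 0.44 (edgeR adjusted p = 0.089). Of 12 bone, dentin and enamel genes 0 rose and 2 fell (range 1 to 3) at a median of -1.12, Bglap2 and Odam. The summed level of this list was lower in every Li library than in every Co library, 385 to 661 against 971 to 1295 CPM. The epithelial Odam made up much of that sum, and with Odam taken off, Li 4 lay above Co 2 and Co 4. The summed level of the osteoclast list was higher in every Li library. Omd, osteomodulin, a proteoglycan of mineralised tissue, and Ptprv, a phosphatase of osteoblasts, were among the 12 largest decreases at -1.996 ± 0.50 and -1.65 ± 0.31. Leaving out 1 library ended the call of Bglap2 (any of 14 of the 16 libraries) and Omd (Co 1, Co 2, Co 3, Li 1 or Li 2).

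Few epithelial genes passed, and they moved in both directions. Of 11 basal and wound keratins 1 rose (range 0 to 2, fewest without Co 1, Co 3 or Li 4, most without Co 4) and 1 fell. Odam, a protein of the junctional epithelium at the tooth, was at 281, 612, 597 and 611 CPM in Co and 174, 159.7, 176 and 236 CPM in Li, a fall of 1.496 ± 0.27 on the log2 scale (edgeR adjusted p = 0.0066). Krt15, a keratin of resting basal cells, was at 1312, 1373, 842 and 1127 and 196, 131, 390.2 and 573 CPM (-1.85 ± 0.45, edgeR adjusted p = 0.027), whereas Krt14, the general basal keratin, was at 9693, 12687, 8935 and 12341 CPM in Co and 16024, 12939.8, 14994 and 19243 CPM in Li and rose by 0.53 ± 0.14 (edgeR adjusted p = 0.028). Krt5, its partner, was at 0.05 ± 0.14. Keratins 16 and 6b, of wounded epithelium, were at 0.69 ± 0.21 (edgeR adjusted p = 0.063) and 0.61 ± 0.20 (edgeR adjusted p = 0.070). Krt1, of keratinised surface layers, was at 106, 259.9, 186 and 315 CPM in Co and 20.02, 37.7, 57.2 and 87.4 CPM in Li (-2.10 ± 0.43, edgeR adjusted p = 0.012), the sole call among 11 differentiation keratins (range 0 to 2, fewest without Li 2, most without Li 3). The abundant mucosal keratins Krt13 and Krt4 were at -0.60 ± 0.35 and -0.56 ± 0.40. Every Li library was on the same side of every Co library in Odam, Krt15, Krt14 and Krt1. Calls lost with 1 library left out were those of Krt15 (Co 1, Co 2, Co 4, Li 1 or Li 2), Krt14 (Co 1, Co 3, Li 1 or Li 4) and Krt1 (Li 2).

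Several abundant genes of the upper layers were low in Li 1 and Li 2 and at the Co level in Li 3 and Li 4, and did not pass. Krt76, a keratin of gingiva and palate, was at 20439, 16758, 13104 and 19093 CPM in Co and 2769, 3160.0, 14909 and 14218 CPM in Li (-0.99 ± 0.48, edgeR adjusted p = 0.24). Loricrin (Lor), the main protein of the cornified envelope, was at 2151, 1611, 2607 and 3023 and 522, 440.0, 2125 and 1651 CPM (-0.99 ± 0.42, edgeR adjusted p = 0.17), and filaggrin (Flg), which bundles keratin filaments, at 277, 282, 336 and 437 and 29.1, 30.2, 285 and 277 CPM (-1.10 ± 0.72, edgeR adjusted p = 0.40). Of 22 cornified envelope and barrier genes 0 passed edgeR at an adjusted p under 0.05 (7 at an unadjusted p under 0.05, 2 by DESeq2 and 0 by limma-voom). When 1 library was left out, 0 to 2 of them fell. Their median was -0.78, and 22 had a negative fold change. Repetin (Rptn) and hornerin (Hrnr), large envelope proteins, were at -0.89 ± 0.53 and -1.36 ± 0.64. Small proline-rich proteins, crosslinked into the envelope under stress, rose in 5 of 14 cases. Sprr2a1 (ENSMUSG00000078664.3) was at 23.9, 64.2, 29.4 and 51.7 CPM in Co and 2053, 2814, 709 and 1253 CPM in Li (5.34 ± 0.81, edgeR adjusted p = 0.0036). Sprr2a2, Sprr2a3, Sprr2b and Sprr2i also rose, by 5.25 ± 0.80, 4.87 ± 0.88, 6.35 ± 1.41 and 4.59 ± 0.86, while Sprr1a, Sprr2d and Sprr3 were at -0.71 ± 0.30, 0.61 ± 0.39 and -0.49 ± 0.43 and did not pass. Without 1 library the call did not hold for Sprr2b (Co 1, Co 3, Co 4 or Li 2).

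The Sprr2a copies are near-identical, so reads may be shared among them and their single values are uncertain. The 250 bases upstream of Sprr2a1 (chr3:92215585-92215834, plus strand, GRCm38.p6) equal those of Sprr2a2 (chr3:92250397-92250646, plus strand) at 250 of 250 positions. The stretch is shown because it stands for both copies, with 3 overlapping or adjacent C/EBP-type TTNCNNAA matches in capitals.
Sprr2a1: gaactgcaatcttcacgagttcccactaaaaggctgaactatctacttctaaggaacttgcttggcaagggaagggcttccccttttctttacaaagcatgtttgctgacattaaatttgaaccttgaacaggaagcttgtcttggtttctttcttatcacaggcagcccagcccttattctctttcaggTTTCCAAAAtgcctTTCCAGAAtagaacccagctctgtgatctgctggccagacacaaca
The matches begin 60, 59 and 46 bases before the start.

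Defences of the epithelium were mixed. Defb4, a beta-defensin, was at 345, 247, 423 and 429 CPM in Co and 116, 47.8, 204 and 168 CPM in Li and fell by 1.43 ± 0.34 on the log2 scale (edgeR adjusted p = 0.022), while Nos2, the inducible nitric oxide synthase, rose by 3.38 ± 0.83. Slpi, an abundant protease inhibitor of mucosa, was at -0.78 ± 0.39 and Defb1 at 0.02 ± 0.19. In the list, 3 genes rose (range 0 to 3, fewest without Co 1, Co 3, Co 4 or Li 2) and 1 fell of 20, and 2 of those that rose were S100a8 and S100a9. Aldh3a1, an aldehyde dehydrogenase of exposed epithelia, was at 753, 515, 997 and 938 CPM in Co and 185, 182, 369.5 and 315 CPM in Li (-1.61 ± 0.32, edgeR adjusted p = 0.0097). Of 16 retinoid genes 1 rose (range 1 to 3, most without Li 3), Aldh1a3, which makes retinoic acid, by 1.81 ± 0.37. Lrat, which esterifies retinol and was among the 12 largest increases, was at 0.291, 1.05, 0.192 and 0.873 CPM in Co and 25.5, 14.8, 6.37 and 8.51 CPM in Li (4.51 ± 0.69, edgeR adjusted p = 0.0036). The groups did not overlap in Defb4, Aldh3a1 or Lrat. With 1 library left out, the call was lost for Defb4 (Co 1, Co 3, Co 4 or Li 1) and Nos2 (Co 1, Co 2, Co 3, Co 4 or Li 2).

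Growth factor genes moved singly. Inhba, the activin A subunit, was at 7.53, 10.2, 15.1 and 14.0 CPM in Co and 89.1, 128, 20.6 and 51.1 CPM in Li (2.63 ± 0.48, edgeR adjusted p = 0.0075), and the Wnt modulators Sfrp1 and Sfrp4 rose by 1.41 ± 0.26 and 2.84 ± 0.59. Wnt10b, a Wnt ligand, was at 11.1, 13.2, 15.7 and 9.95 and 1.55, 2.95, 3.81 and 4.09 CPM and fell by 2.01 ± 0.39 on the log2 scale (edgeR adjusted p = 0.0080). In the epidermal growth factor family Nrg1 and Areg rose by 2.16 ± 0.44 and 1.41 ± 0.35 and Btc fell by 1.29 ± 0.37 on the log2 scale, while Egfr was at 0.31 ± 0.09. Angptl4, a lipoprotein lipase inhibitor induced by fatty acids and hypoxia, was at 1.24, 2.8, 3.45 and 2.14 CPM in Co and 52.5, 88.8, 14.9 and 19.5 CPM in Li (4.19 ± 0.80, edgeR adjusted p = 0.0096). Prnd, a prion-like gene, rose by 4.39 ± 0.98. Myl4, a myosin light chain of developing and atrial muscle and 1 of the 12 largest increases, was at 1.26, 0.934, 0.815 and 1.06 CPM in Co and 3.72, 57.5, 13.4 and 8.98 CPM in Li (4.36 ± 1.05), with Li 2 the highest. Of 14 hypoxia and glycolysis genes 3 rose (range 2 to 7, most without Li 3), Slc2a1, the main glucose carrier, by 1.18 ± 0.21, Car9, a carbonic anhydrase, by 1.38 ± 0.30 and Pfkp, of glycolysis, by 0.51 ± 0.09. Of 20 proliferation genes 2 rose (range 1 to 3, fewest without Co 1, Co 3, Co 4, Li 1, Li 2 or Li 4), Birc5 by 0.79 ± 0.16 and Aurka by 0.86 ± 0.23, with Mki67 at 0.34 ± 0.18. Hspa8, the constitutive heat shock chaperone, rose in an even manner, from 1369, 1422, 1259 and 1448 to 2038, 2022, 2283 and 2494 CPM (0.68 ± 0.09, edgeR adjusted p = 0.0012), and Hspa5, of the endoplasmic reticulum, was at 0.39 ± 0.13. Li and Co did not overlap in the genes of this paragraph given by library. The test was no longer passed with 1 library left out by Areg (Co 1, Co 2, Co 4 or Li 2), Btc (any of 12 of the 16 libraries), Prnd (Co 1, Co 3 or Li 2), Myl4 (Co 1, Co 2, Co 3, Co 4 or Li 2), Car9 (Li 2) and Aurka (Co 1, Co 3, Co 4, Li 1, Li 2 or Li 4).

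Circadian clock genes held the most decreases of the 53 lists, 6 of 17 (range 3 to 7, fewest without Co 1, Co 3 or Li 2), with 1 rise. The clock is a loop of transcription factors that runs in most cells, and its output factors peak at fixed hours. Nr1d1, a repressor of the loop, was at 81.2, 74.5, 83.7 and 85.0 CPM in Co and 29.1, 37.9, 36.4 and 19.5 CPM in Li (-1.40 ± 0.18, edgeR adjusted p = 0.0012). Dbp, an output factor, was at 127, 95.0, 130.1 and 104 and 66.5, 38.8, 45.0 and 27.6 CPM (-1.36 ± 0.38, edgeR adjusted p = 0.045), and Bhlhe41, another repressor, at 30.5, 27.7, 41.8 and 31.1 and 13.2, 11.99, 12.9 and 15.3 CPM (-1.30 ± 0.21). Tef, Hlf and Per3 fell by 0.68 ± 0.14, 0.65 ± 0.16 and 0.67 ± 0.18 on the log2 scale. Nfil3, which opposes Dbp at the same sites and is also induced by cytokines, rose, from 2.77, 6.33, 3.6 and 5.58 to 17.4, 31.96, 10.6 and 15.3 CPM (2.04 ± 0.34, edgeR adjusted p = 0.0045). All Li libraries were on the same side of all Co libraries in these genes except Hlf, and Li 4 was the lowest library in Nr1d1 and Dbp. Core factors did not pass, Arntl at 0.55 ± 0.28, Clock at -0.20 ± 0.11, Per2 at -0.16 ± 0.18 and Cry1 at 0.41 ± 0.30. The labels give no hour of sampling. Leaving out 1 library ended the call of Dbp (any of 12 of the 16 libraries), Hlf (Co 1, Co 3, Li 1 or Li 2) and Per3 (Co 1, Co 3, Co 4, Li 2 or Li 4).

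Metal and redox genes fell in 5 of 13 cases (range 2 to 6, fewest without Co 4) and rose in 1 (range 0 to 2, fewest without Co 3 or Li 2, most without Li 3). Mt3, a metallothionein, was at 42.7, 38.6, 46.1 and 53.1 CPM in Co and 11.4, 9.53, 21.0 and 18.4 CPM in Li (-1.58 ± 0.28, edgeR adjusted p = 0.0055), while Mt1, induced by metals and inflammation, rose by 0.74 ± 0.16 and Mt4, of stratified epithelium, fell by 0.99 ± 0.28 on the log2 scale. Nqo1, a quinone reductase, was at 189.7, 147, 214 and 201 and 128, 73.0, 83.1 and 96.2 CPM (-0.98 ± 0.19, edgeR adjusted p = 0.0086), and Gclc, the rate-limiting enzyme of glutathione synthesis, fell by 0.69 ± 0.15 on the log2 scale. Among the other large decreases were Inmt, a methyltransferase, at 124, 47.5, 69.2 and 71.8 CPM in Co and 18.1, 14.2, 30.0 and 18.8 CPM in Li (-1.95 ± 0.37), Cilp2, a matrix protein of cartilage and ligament, at -1.96 ± 0.50, Sptssb, a subunit that boosts sphingolipid synthesis, at -1.67 ± 0.47, Fgf14 at -1.67 ± 0.41, Unc93a2 at -1.83 ± 0.38 and Slc9a3, a sodium-proton exchanger, at -1.64 ± 0.42. All of these had Li below Co in every library. Of 20 genes of fatty acid, sterol and ceramide synthesis 2 fell (range 0 to 2, fewest without Co 1, Co 2, Co 3, Co 4, Li 1 or Li 2), Idi1 by 0.54 ± 0.14 and Elovl6 by 0.52 ± 0.15 on the log2 scale, and of 18 junction genes 1 rose, Dsg3 by 0.56 ± 0.16, with overlapping groups. Calls lost with 1 library left out were those of Mt1 (Co 3 or Li 2), Mt4 (any of 14 of the 16 libraries), Gclc (Co 4), Cilp2 (Co 1, Co 2, Co 3, Li 1 or Li 2), Sptssb (any of 13 of the 16 libraries), Fgf14 (Co 1, Co 2, Co 4, Li 1 or Li 2), Slc9a3 (Co 1, Co 3, Co 4 or Li 1), Idi1 (Co 1, Co 2, Co 3, Co 4, Li 1 or Li 2), Elovl6 (any of 13 of the 16 libraries) and Dsg3 (any of 8 of the 16 libraries).

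**Figure D3:**
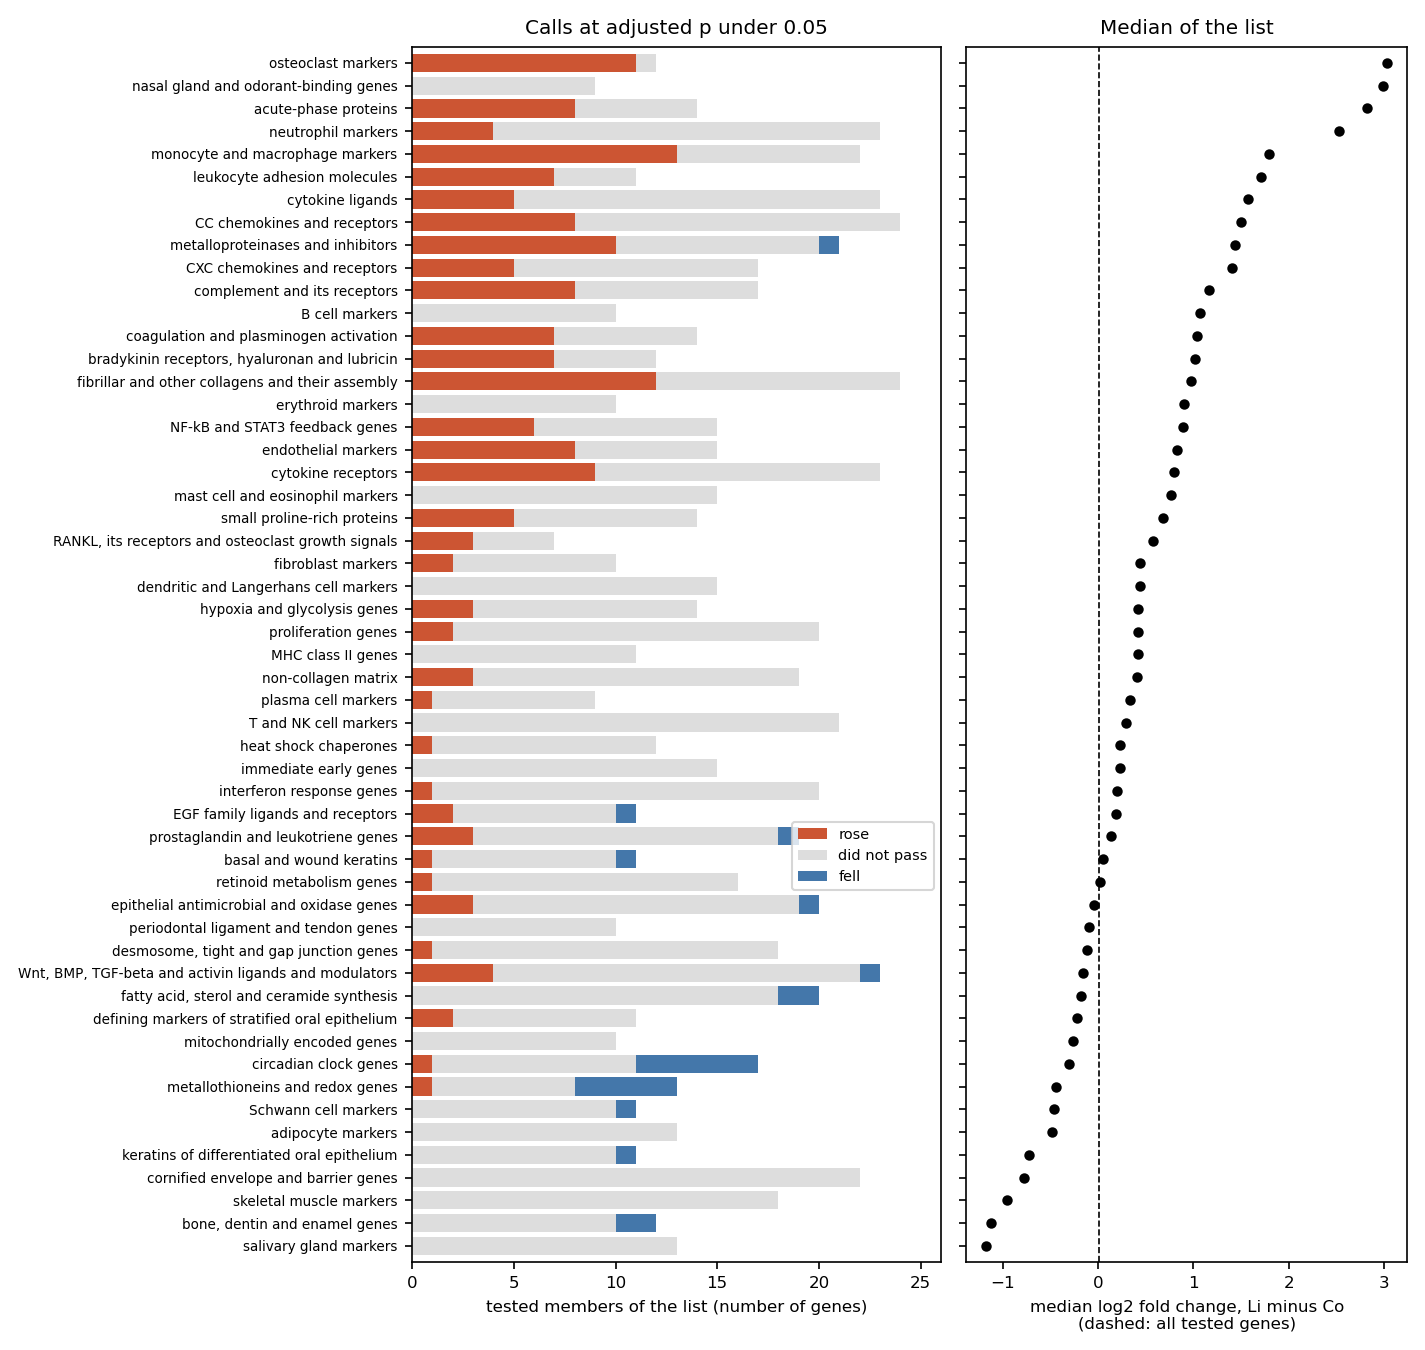
For each of the 53 gene lists, the left panel gives the number of tested members that rose, did not pass or fell, and the right panel the median log2 fold change of Li over Co, with a dashed line for all tested genes. Osteoclast markers have the highest median, 3.03, with 11 of 12 members risen, and nasal gland genes have a median of 2.995 with none.

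Lists of tissue beside the gingiva gave no edgeR call in either direction for muscle (median -0.96), adipocyte (-0.49), salivary gland (-1.17), nasal gland (2.995), erythroid (0.90) or mitochondrial genes (-0.26). At an unadjusted p under 0.05 there were 2, 1, 1, 2, 0 and 2 genes in the same order, by DESeq2 2, 0, 1, 1, 0 and 0 and by limma-voom 0, 0, 0, 0, 0 and 0. At most 1 gene of any of these lists passed edgeR when 1 library was left out. Levels varied widely between libraries of 1 group. Muscle scores ran from -2.996 in Co 2 to 1.06 in Co 1, and salivary scores from -3.71 in Co 4 to 1.80 in Co 1. Of 11 Schwann cell markers 1 passed (range 0 to 2, most without Li 3), Drp2, a dystrophin relative of myelinating cells, at -1.22 ± 0.35 with overlapping groups. Nasal gland genes summed to 676 CPM in Li 1 and at most 78.7 CPM elsewhere. Mitochondrial transcripts, a sign of RNA quality, gave mt-Co1 at -0.21 ± 0.16 and mt-Nd1 at -0.36 ± 0.15. Without 1 library the call did not hold for Drp2 (any of 11 of the 16 libraries).

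**Figure D4:**
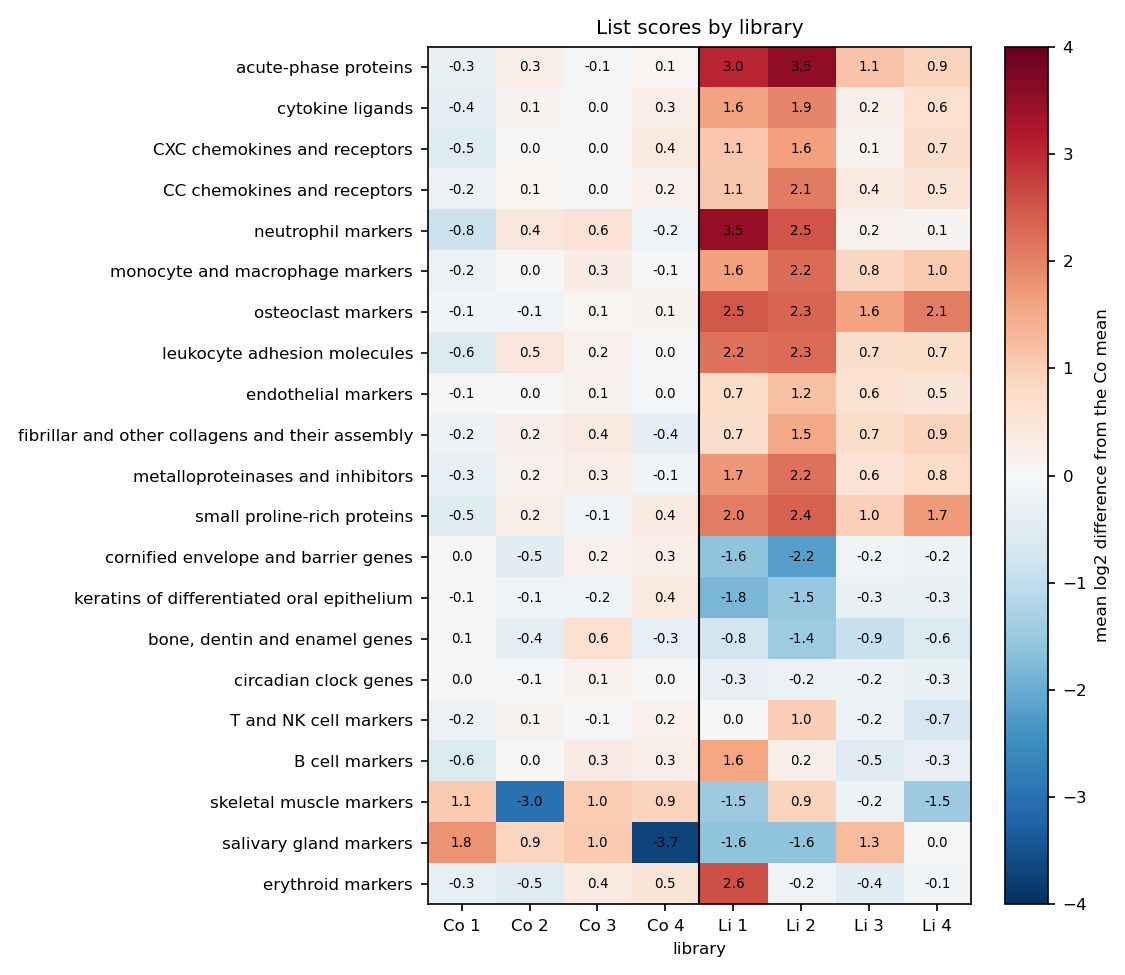
Scores of 21 lists (rows) in the 8 libraries (columns), each the mean over members of the log2 difference from the Co mean with 0.5 CPM added; red is higher and blue lower. Osteoclast scores lie between 1.60 and 2.47 in all 4 Li libraries, whereas cornified envelope scores are -1.60 and -2.21 in Li 1 and Li 2 and -0.16 and -0.21 in Li 3 and Li 4.

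The ligature was also tied in overloaded teeth, and the groups LiTra and Tra share no library with Li and Co. Whether the response differed with overload was tested as an interaction: 0.00% of 20143 genes passed edgeR, 0 in number. Before adjustment 2273 had p under 0.05, and the smallest adjusted value was 0.254. DESeq2 called 183 genes and limma-voom 0. Without Co 4, edgeR called 1. The fitted ligature effect under overload was 9.74 ± 1.42 for Saa3, 5.06 ± 1.02 for Mmp3, 4.01 ± 0.55 for Mmp13, 3.17 ± 0.70 for Tnfsf11, 4.27 ± 0.85 for S100a8, -0.89 ± 0.18 for Nr1d1 and -1.98 ± 0.46 for Krt15. The differences from the change without overload were 0.80 ± 1.47, -1.22 ± 1.24, 0.13 ± 0.68, -0.997 ± 0.95, 1.09 ± 1.06, 0.51 ± 0.26 and -0.13 ± 0.62 in the same order. A test that misses the threshold does not show that the responses were alike.

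The gingival response was set against that of bone in a fit of all 32 libraries. The ligature effect differed between the tissues in 483 of 22559 genes by edgeR, 158 more positive in gingiva (0.700%) and 325 more negative (1.44%). This count was 0 with library totals in place of TMM, and 1405 without bone Co 3, Tra 3 and LiTra 1, the 3 libraries in which 10 genes took 51.1% to 62.9% of the counts. Nasal gland genes took at most 1.81% of counts in the 16 gingiva libraries, in Tra 2, and at most 0.0733% in Li and Co, and ran from 0.0051% to 50.05% in the 16 bone libraries, and their part in the difference was not tested. Leaving out 1 gingiva library gave 153 without Li 2, 172 without Co 1, 252 without Li 1, 279 without Co 4, 312 without Co 2, 316 without Co 3 and 760 without Li 4. S100a8 had an effect of 3.18 ± 0.72 in gingiva and -0.63 ± 0.66 in bone, where its level was 2705, 2953, 2144 and 2120.2 CPM in Co and 2651, 1958, 1239 and 577 CPM in Li, a difference of 3.80 ± 0.96 (edgeR adjusted p = 0.036). Pi15, a secreted protein of the CAP family, had effects of 4.16 ± 0.63 and 0.67 ± 0.57, Aqp9, a glycerol and water channel of myeloid cells, 1.96 ± 0.43 and -1.05 ± 0.42, Hrh2, a histamine receptor, 2.44 ± 0.57 and -0.46 ± 0.53, and Siglecg, a sialic acid receptor of B cells, 1.44 ± 0.52 and -1.75 ± 0.50. Gingival Siglecg was at 7.58, 2.74, 1.46 and 0.864 CPM in Li 1 to Li 4, against a mean of 1.16 in Co. Its rise in gingiva was thus mostly in Li 1, with Li 3 inside the Co range and Li 4 below it. Over the 16 fits leaving out 1 gingiva library, the Siglecg difference between tissues ran from 2.299 to 3.5, and 1 fit lost the call. The other way, Mt3 had an effect of -1.59 ± 0.30 in gingiva and 1.35 ± 0.30 in bone, Ostn, a secreted peptide of bone and muscle, -1.23 ± 0.54 and 2.06 ± 0.55, and Serpinb8, an intracellular protease inhibitor, -0.88 ± 0.24 and 1.21 ± 0.25. Saa3, Mmp3 and Nr1d1 had effects of 7.35 ± 1.05, 5.71 ± 0.95 and -1.66 ± 0.27 in bone, and the differences from gingiva did not pass.

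**Figure D5:**
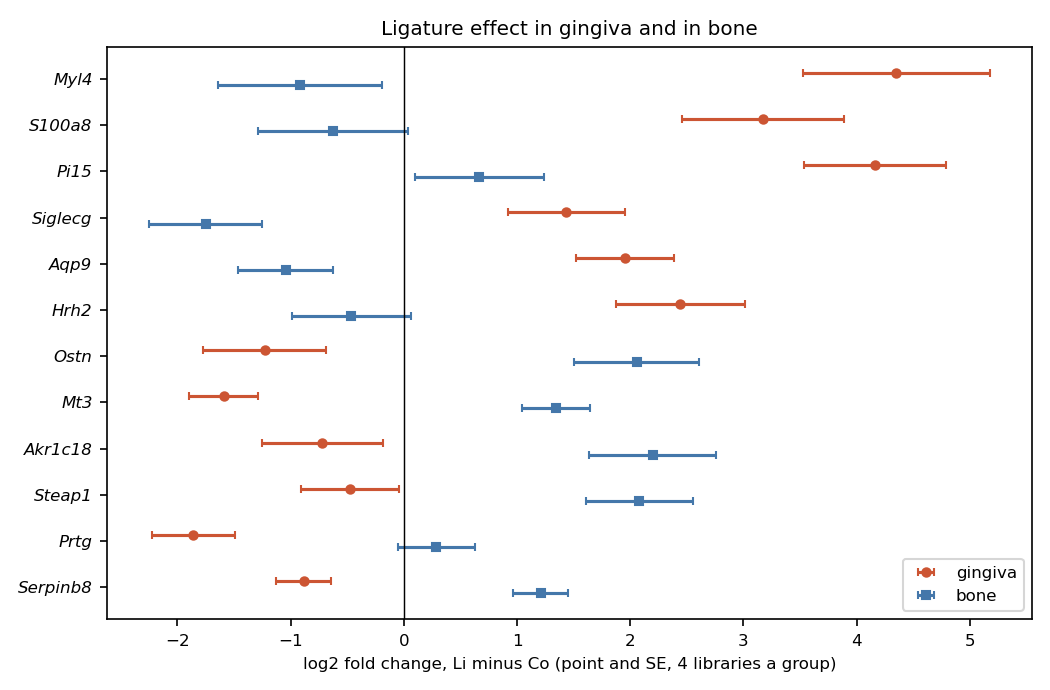
Log2 fold change of Li over Co in gingiva (circles) and bone (squares) with its SE, 4 libraries a group, for the 6 genes with the most positive and the 6 with the most negative difference between tissues among called genes. Myl4 lies at 4.35 ± 0.83 in gingiva and -0.92 ± 0.72 in bone, and Mt3 at -1.59 ± 0.30 and 1.35 ± 0.30.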

How the data were processed

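Poly(A) RNA from gingiva and bone was sequenced. Per the submitters' processing notes, the tools included HISAT2 2.2.1, StringTie 2.1.7, DESeq2 1.32.0 beside FastQC 0.11.9 and Trimmomatic 0.39, with build GRCm39. The authors deposited estimated counts per Ensembl gene, whole numbers without normalization, in 1 table for each tissue. How reads shared by overlapping or near-identical genes were assigned, and whether strand was used, is not given in the sources used here. Symbols came from a reference gene table and matched 52083 of 55359 IDs. Genes were kept by edgeR's filterByExpr (minimum count 10, minimum total 15), which left out 35216.

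The 16 gingiva libraries were fitted together with TMM factors and edgeR 4.0.16 (quasi-likelihood), in R 4.3.3; adjusted p is Benjamini-Hochberg over all genes tested. The interaction used the same fit and the tissue difference a fit of 32 libraries. The SE is the absolute log2 fold change over the square root of F. Alternatives were other size factors, filters and samples, DESeq2 1.42.0, voom in limma 3.58.1, a replicate block and each gingiva library left out. On simulated counts for Li against Co, 66% of genes changed 2-fold and 89% of those changed 4-fold were recovered over 19631 genes, and 5 of 160 calls were false. At each fold 100 genes were changed, drawn from the better-counted genes. Counts were drawn independently for each gene, without differences in tissue makeup or between Li libraries. The rates may therefore not hold for the real libraries or for genes of low count.

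The genes named are from a rule: the 12 largest changes each way among called genes without overlap and with a mean log2 CPM of at least 1, of each list the 4 members with the smallest p and the 3 with the highest level, and 11 genes of the disease. The comparison, the 53 lists and the rule were chosen with earlier results of these data known. Outside the rule, chosen after their values were seen, are Aldh3a1, Arntl, Atp6v0d2, Bdkrb2, Cd14, Cd3e, Cldn5, Cry1, Cxcl1, Cxcl2, Cxcl9, Dbp, Dcstamp, Defb1, Flg, Gpnmb, Has2, Has3, Hlf, Hp, Il17a, Il24, Il34, Isg15, Krt5, Lbp, Lcn2, Lox, Ly6g, Mpo, Nfatc1, Per2, Per3, Siglec15, Sprr1a, Sprr2b, Sprr2d and Timp2. No 2 libraries of Li or Co held identical values. Promoter sequences are from RefSeq, GRCm38.p6.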

Additional observations from a re-analysis of the deposited data

Results flagged for a closer look

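Of 142 groups of 4 libraries checked for the genes whose 8 values are printed, 15 held 1 library far from the others, its gap to the next library, as a share of the group's range, being above Dixon's critical value at the 0.05 level. That level would flag about 1 in 20 groups of independent, normally distributed values. The groups here share libraries, and some genes were chosen after their values were seen. The number flagged therefore cannot be set against that rate. Li 2 was the highest of its group with a ratio of 0.902 for C3, 0.900 for Col4a1, 0.840 for Fbn1, 0.833 for Myh3, 0.927 for Myog and 0.838 for Prg4. Co 4 was the highest of its group with a ratio of 0.834 for Ccl2, 0.957 for Cfb, 0.997 for Cxcl9 and 0.849 for Il24. Co 2 was the lowest of its group with a ratio of 0.877 for Il33. Li 1 was the highest of its group with a ratio of 0.865 for Ly6g and 0.908 for Mpo. Co 3 was the highest of its group with a ratio of 0.862 for Mpo. Co 1 was the lowest of its group with a ratio of 0.954 for Odam.

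The ligature effect differed between gingiva and bone, by the test of the difference, in 483 genes. The largest differences, gingiva minus bone on the log2 scale, were 5.27 for Myl4, 3.80 for S100a8, 3.49 for Pi15, 3.19 for Siglecg, 3.001 for Aqp9 and 2.91 for Hrh2. In the other direction they were -3.29 for Ostn, -2.94 for Mt3, -2.92 for Akr1c18, -2.56 for Steap1, -2.15 for Prtg and -2.09 for Serpinb8. With library totals in place of TMM none of these 12 passed, at adjusted p between 0.63 and 0.67.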

How the results depend on the processing

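No named gene that passed changed direction under any alternative run, while 12 of the 73 that did not pass changed sign under at least 1. Mrgprb2, Kit and Mcpt4 are not counted among the 73. Among the 176 named genes that passed, 176 kept the call with DESeq2, 176 with its size factors, 174 with library totals, 145 without a filter, 127 with limma-voom and 92 of 173 with Li and Co fitted alone. The count of genes called was 337 at an adjusted p under 0.01 (266 higher, 71 lower), 620 at a fold change of at least 2 (495 and 125), 2736 with DESeq2 (1692 and 1044), 1005 with limma-voom (657 and 348) and 396 with Li and Co alone (272 and 124); without a filter 302 fell. The cause of these differences was not tested. With 1 gingiva library left out, 526 to 2213 genes were called, 395 to 1505 higher and 131 to 708 lower, and 0 to 1 for the interaction, for which DESeq2 called 183. The tissue difference gave 61 genes at an adjusted p under 0.01, 165 at a fold change of at least 2, 0 with library totals, 205 without a filter, 1455 with DESeq2, 787 with limma-voom, 1405 without 3 bone libraries (chosen after seeing the data) and 153 to 760 with 1 gingiva library left out.

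Li and Co share replicate numbers, and the labels do not say whether equal numbers mark a pair. Deviations from the group means had correlations of -0.207, -0.069, 0.022 and -0.017 between same-numbered libraries. Between libraries of different numbers they ran from -0.216 to 0.277. These values cannot settle whether the number pairs libraries, and the main fit used no pairing. With the replicate block 1357 genes were called, 901 higher and 456 lower, 0 for the interaction and 494 for the tissue difference, or 467 with a replicate block of group and number. At this depth 35216 genes were below the filter and not tested.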

Other observations

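Several gene families that no list above held were put together after their values had been seen, so their counts are a description without a test. Glutathione S-transferases, which couple glutathione to reactive compounds, had 9 of 24 members lower and 0 higher in Li (median log2 change -0.64). Gsta4, which clears lipid peroxidation products, was at 875, 939, 1005 and 1138 CPM in Co and 711, 602, 624 and 764 CPM in Li (-0.55 ± 0.11, edgeR adjusted p = 0.0082), and Gstm1 at 225, 232, 297 and 279.8 and 97.7, 108, 145 and 129 CPM (-1.10 ± 0.16, edgeR adjusted p = 0.0017). Neither gene overlapped between the groups. Gsta1 and Gstp1 were lower, at -1.36 ± 0.32 and -0.66 ± 0.10, and the abundant Gsto1 was at -0.27 ± 0.21 and did not pass. Members of the alpha, mu and pi classes are close copies, so their single values are uncertain. With 1 library left out, the call was lost for Gsta1 (Co 1, Co 3, Co 4, Li 1 or Li 2).

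Among lysosomal enzymes, of 14 cathepsins 6 rose and 0 fell (median 0.84), Ctss, of antigen-presenting cells, by 1.67 ± 0.44, Ctsb by 1.03 ± 0.14 and Ctsc, which activates neutrophil serine proteases, by 1.06 ± 0.15, with Ctsd at 0.25 ± 0.14 and Ctsl at -0.02 ± 0.12. Of 19 lysosomal glycosidases and sulfatases 10 rose and 0 fell (median 0.63), Gusb by 1.14 ± 0.22, Arsb by 1.10 ± 0.17 and Hexa by 0.81 ± 0.22. Among myeloid receptors 5 of 7 Clec4 lectins rose (median 2.201), Clec4n, the fungal receptor dectin 2, by 2.57 ± 0.55, and 4 of 13 Ms4a genes rose (median 1.97), Ms4a6d by 3.14 ± 0.38 and Ms4a4a by 2.67 ± 0.44. The test was no longer passed with 1 library left out by Ctss (Co 1, Co 2, Co 3, Co 4, Li 1 or Li 2), Hexa (Co 1, Co 2, Co 3, Co 4, Li 1 or Li 2) and Clec4n (Co 1 or Co 4).

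Basement membrane genes beside collagen IV rose in 5 of 13 cases and fell in 1. Nid1 and Nid2, the nidogens that link laminin to collagen IV, were higher by 1.44 ± 0.25 and 1.96 ± 0.35, and the chains Lama4, Lamb1 and Lamc1, of vessel basement membranes, by 1.02 ± 0.18, 1.19 ± 0.16 and 0.87 ± 0.19. The epithelial chains Lama3 and Lamb3 were at 0.32 ± 0.32 and 0.29 ± 0.29 and did not pass, and Lamc3 was lower (-1.57 ± 0.30). In the interleukin 20 subfamily the receptor chain Il20ra rose by 3.41 ± 0.59 and Il20rb fell by 0.61 ± 0.14 on the log2 scale, beside the rises of Il19 and Il24 above. All 20 late cornified envelope genes had a negative fold change, and 2 passed, Lce1j at -1.37 ± 0.36 and Lce1k at -1.17 ± 0.31. The summed level of the 20 genes was 3310 to 4827 CPM in Co and 1638, 761, 4052 and 3141 CPM in Li 1 to Li 4. Most of the decrease was thus in Li 1 and Li 2, and Li 3 lay within the Co range. Leaving out 1 library ended the call of Lamc1 (Co 1), Il20rb (Co 4), Lce1j (Co 1, Co 2, Co 3, Co 4, Li 1 or Li 2) and Lce1k (Co 1, Co 2, Co 3, Co 4 or Li 1).

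Genes of developing and regenerating muscle came to a summed level of 368 CPM in Li 2, 59.3 in Li 3, 34.0 in Li 4 and 5.67 in Li 1, against 1.65 to 4.2 in Co. Myog, the factor of muscle differentiation, was at 0.121, 0, 0.192 and 0.265 CPM in Co and 1.12, 20.8, 2.56 and 2.42 CPM in Li (5.53 ± 1.51, edgeR adjusted p = 0.040). Myh3, the embryonic myosin, had 0, 168, 28.1 and 15.9 CPM in Li 1 to Li 4 and 0.194, 0, 0.144 and 0 CPM in Co. Markers of mature muscle were also highest in Li 2 and next in Li 3, with summed levels of 782, 4160, 1628 and 654 CPM in Li 1 to Li 4. Their list scores were -1.47, 0.89, -0.19 and -1.46 in the same order, within the range of -2.996 to 1.06 in Co. The part of muscle in the tissue taken was not tested. Calls lost with 1 library left out were those of Myog (any of 10 of the 16 libraries).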
